A study of Mus musculus with 12 samples.

Results

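Cycling astroglia and progenitors of the postnatal striatum were a group of 105 cells among 960 postnatal cells with an astroglial profile, and among 4245 cell barcodes of the whole series. The cells were chosen by measured values. A cell had to hold more than 500 detected genes and less than 10% mitochondrial molecules, counted as unique molecular identifiers (UMIs). The astroglia gate asked for at least 3 of the 6 genes Sox9, Slc1a3, Ttyh1, Mfge8, Fgfr3 and Clu and allowed at most 1 of Cldn5, Flt1, Kdr, Rgs5, Pdgfra and C1qa, which mark endothelial cells, pericytes, oligodendrocyte precursors and microglia. Gate cells with at least 5 UMIs summed over 10 cycle genes (Mki67, Top2a, Cdk1, Cenpf, Birc5, Ube2c, Cdca8, Hmmr, Tpx2 and Nusap1) were the cycling cells, and the 855 other postnatal gate cells were the remaining cells.

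The cells came from the striatum of mice labelled wild type and of mixed strain, and were enriched on beads by their ACSA2, an antigen on the surface of astrocytes. Droplet-based 3′ single-cell RNA sequencing was run on 2 postnatal and 2 adult libraries, the latter of 3 months (3m), which the labels list as 12 samples, each a sequencing run. The study's methods name male C57BL/6Jax mice as the source of brain tissue, which differs from the strain label. The labels disagree on the postnatal days. Postnatal replicate 1 is day 7 by its title and day 3 by its age tag, and postnatal replicate 2 is day 3 by its title and day 7 by its age tag, so both were kept as 1 postnatal group and day 3 was not compared with day 7. The study's text gives its early striatal cells as day 3 and mentions no mice of day 7. It also reports 3 preparations for each age, and more sequenced cells than the barcodes held here. Its methods describe striatum dissected without the subventricular zone from several animals for each preparation, as a range rather than a number for each library.

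Dividing cells copy their DNA in S phase and part the copies in mitosis. Genes for the replication machinery are switched on by E2F factors around the entry into S phase, whereas genes for the spindle, the centromere and chromosome condensation follow in G2 and mitosis, many of them through the CHR element and CCAAT boxes of their promoters. In the early postnatal forebrain astroglia still divide locally, and related progenitors that express Egfr and Olig2 give rise to glia and, near the ventricle, to neurons.

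Cycling cells made up 36 of 402 gate cells in postnatal replicate 1 (8.96%, 95% Clopper-Pearson interval 6.35 to 12.2) and 69 of 558 in postnatal replicate 2 (12.4%, 9.75 to 15.4). These intervals cover counting error only. The limit of 5 UMIs fell in a sparsely filled range. In postnatal replicate 1, 1 gate cell held 3 and 1 held 4 UMIs of the cycle genes, just outside the limit, and 2 held 5 and 2 held 6, just inside it. In postnatal replicate 2 these numbers were 5, 7, 2 and 0 cells. At 12 UMIs or more lay 28 of the 36 and 60 of the 69 cycling cells.

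**Figure D1:**
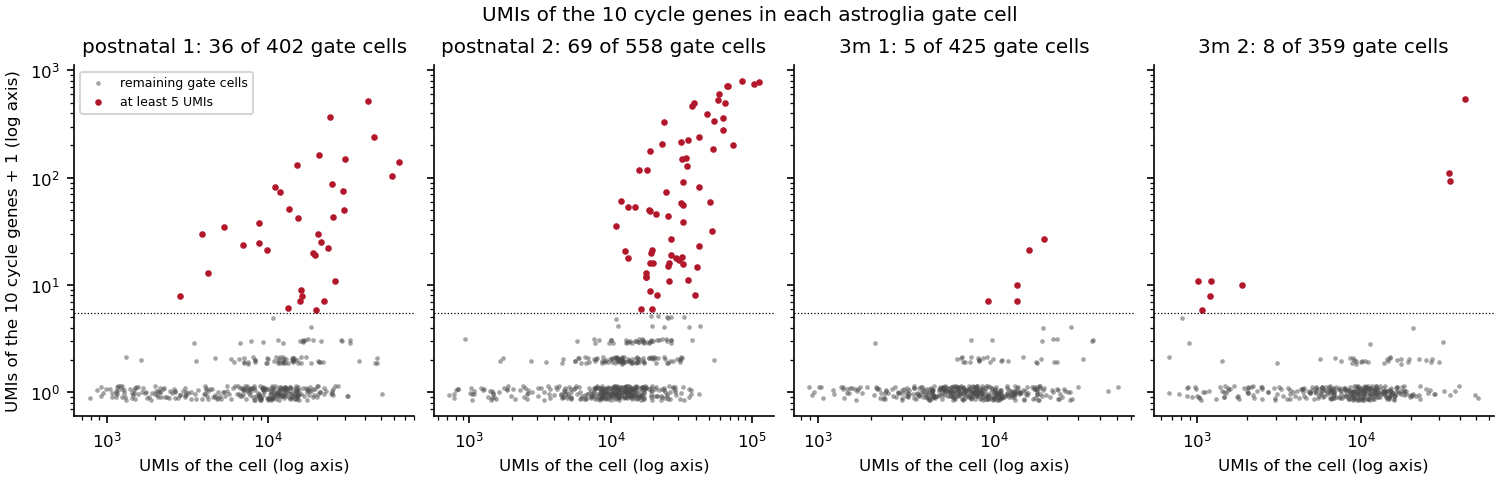
UMIs of the 10 cycle genes plus 1 (y, log axis) against all UMIs of a cell (x, log axis) for every gate cell of the 4 libraries, with the limit of 5 UMIs dotted. Cycling cells (red) numbered 36, 69, 5 and 8, most of them in the postnatal libraries lay well above the limit, and 5 of the 8 in 3m replicate 2 were cells with few UMIs.

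The cycling cells were deeper than the remaining cells. Their median was 19270.5 UMIs against 9849 in postnatal replicate 1 and 31499 against 11515 in postnatal replicate 2. Cells of 40000 UMIs or more numbered 4 of 36 and 20 of 69, and these carried 28.2% and 50.9% of all UMIs of the cycling cells. Median mitochondrial shares were close, at 2.22% against 2.59% and 2.24% against 1.98%. Scrublet, a doublet caller, marked 1 cycling cell in postnatal replicate 1 and 0 in postnatal replicate 2. Cell barcodes were shared between libraries, 95 of them between postnatal replicate 2 and 3m replicate 2 and at most 2 between any other pair. Of the cycling cells, 1 of 36 and 37 of 69 had a barcode that also occurred in a 3m library, and in each of these the postnatal cell was the larger. Their part in the gene calls and the shares is given below.

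Levels of the rule genes are a description, since they chose the cells. Over the summed cells, Top2a, which untangles DNA, stood at 850 CPM (UMIs scaled to the same total in every sum) in the cycling cells of postnatal replicate 1 and 897 in those of postnatal replicate 2, against 4.75 and 4.67 in the remaining cells. Mki67, the gene of the Ki67 proliferation antigen, stood at 321 and 537 CPM against 1.58 and 2.90. Sox9, a transcription factor of astroglia, was detected in 33 of 36 and 65 of 69 cycling cells, and Slc1a3, a glutamate transporter, in 17 and 69. Sox9 levels were 462 and 367 CPM against 906 and 950 CPM in the remaining cells. The astroglial part of the label therefore rests on the gate genes, and the other astrocyte genes are described further on.

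The comparison of cycling with remaining cells asked which other genes differed between them. UMI counts were summed over the cycling and over the remaining cells of each postnatal library, and edgeR (quasi-likelihood F test) was fitted to the 4 sums with the library as a block, which left 1 residual degree of freedom. Called genes had an adjusted p (Benjamini-Hochberg) no larger than 0.05 together with a fold change of at least 2, and fold changes are from this fit unless a CPM ratio is named. Of 11622 genes outside the rule, 668 (5.75%) were called higher and 539 (4.64%) were called lower in cycling cells. These shares are the background for the counts of each gene list. The median log2 fold change of all tested genes was -0.04. Genes that move with the 10 cycle genes were not measured independently of the rule. With each UMI assigned at random to 1 of 2 portions, cells chosen on the first portion and genes counted in the second, 716 genes were called higher, 592 of them among the 668. The split removes shared counting noise only. Cells were still chosen for the cycle genes, so genes that move with these stay tied to the rule. Without all cells of shared barcodes 618 genes were called higher and 471 lower, 546 of them among the 668 and 392 among the 539. Of the lists, 49 replication and 71 mitosis genes were then called higher and 19 mature astrocyte genes lower, and the genes named by rule that lost a call were Gpr37l1, S100b, Slc6a11, Col1a2, Dmrta2 and Stmn2.

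DNA replication genes rose almost without exception. Of 53 genes on that list 49 were called higher and 0 lower, with a median log2 fold change of 2.74. Rrm2, a subunit of ribonucleotide reductase that makes the DNA building blocks, stood at 264 and 302 CPM in cycling cells and at 6.59 and 6.28 CPM in remaining cells (45.1-fold, log2 fold change 5.49 ± 0.24 SE, adjusted p = 0.000109). Mcm7, a subunit of the replicative helicase, stood at 341 and 167 CPM against 49.6 and 40.4 (5.36-fold, adjusted p = 0.00137). Both cycling sums lay above both remaining sums for each of these genes. Pcna, the sliding clamp of the polymerases, rose 4.47-fold, Lig1, the ligase that joins new fragments, 8.25-fold, and Nasp, a histone chaperone, 3.91-fold. Rpa3, a subunit of the single-strand binding complex, was not called, with 94.3 and 108 CPM against 56.7 and 62.4.

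Mitosis and G2 genes, which are of the same programme as the rule genes, showed the larger differences. Their rise and their rank above replication are therefore not independent of how the cells were chosen. Of 73 genes 72 were called higher and 0 lower, and the median log2 fold change was 5.86. Ccnb1, the mitotic cyclin B1, stood at 175 and 252 CPM in cycling cells and at 0.264 and 1.13 CPM in remaining cells. Prc1, which bundles the microtubules of the central spindle, stood at 368 and 540 CPM against 2.64 and 4.51 (129-fold, log2 fold change 7.02 ± 0.25 SE, adjusted p = 9.23e-05). Cenpa, the histone variant of centromeres, stood at 313 and 312 CPM against 4.48 and 5.63 (62.0-fold). In each of these the remaining cells were close to 0. Lmnb1, a nuclear lamin, rose 9.38-fold and Smc4, a condensin subunit, 6.33-fold from remaining levels of 41.4 to 71.0 CPM. Ckap5, a microtubule polymerase, was the list's gene that was not called, with 307 and 275 CPM against 186 and 232.

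Among genes of at least 50 CPM on average and outside the rule, 11 of the 12 with the largest rise were mitosis genes. That list was fixed with results of these data known and is of the same programme as the rule genes. The 11 were Aspm, Plk1, Ccnb1, Aurkb, Ccna2, Knl1, Cenpe, Ccnb2, Spc25, Prc1 and Ckap2l, and the other was the histone gene Hist1h3c. Aspm, a spindle pole protein, had 97 and 343 UMIs in the cycling cells and 0 and 1 in the remaining cells. Against the limit of 3 counts in the sum of remaining cells, the Aspm level was at least 165-fold higher in cycling cells of postnatal replicate 1, and the ratio in postnatal replicate 2 was 875 (95% counting interval 156 to 34662). Limits of this kind take the count of the cycling cells as exact. Plk1, a mitotic kinase, had 73 and 288 UMIs against 0 and 2, which was at least 124-fold higher in postnatal replicate 1. Bub1b, a spindle checkpoint kinase, had 34 and 169 UMIs and 0 in both sums of remaining cells, at least 57.9-fold and 144-fold higher by the same limit.

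Promoters of the genes called higher were searched for the letters of known cell cycle elements, because many of these genes moved together. RefSeq promoters (build GRCm38.p6, from 250 bases before to 50 after a start) were found for 39 of the 49 replication genes and 59 of the 72 mitosis genes. The motifs, read on both strands, were E2F (TTTGGCGC, TTTCCCGC, TTTGCCGC or TTTCGCGC), CHR (TTTGAA or TTCGAA) and the CCAAT box (CCAAT). An E2F match was present in 16 of 46 promoters of replication genes (34.8%) and 6 of 65 of mitosis genes (9.23%), beside 2.26% of all 32851 promoters and 4.08% of the promoters of tested genes. A CHR match was present in 19.6% of replication and 72.3% of mitosis promoters, beside 19.2% of all and 13.4% of tested promoters. A CCAAT match was present in 60.9% of replication and 72.3% of mitosis promoters, beside 37.4% of all and 38.1% of tested promoters. CHR and CCAAT were both present in 17.4% and 60.0%, beside 7.52% of all and 5.45% of tested promoters. A match is a description of the letters and was not tested as a site. Examples with a large fold change, 2 replication genes with an E2F match and 2 mitosis genes with CHR and CCAAT matches, are shown from 250 bases before to 30 bases after the start, with matches to these motifs in capitals. Cdc6, which loads the helicase, and Clspn, a checkpoint adaptor of the fork, have E2F matches (Clspn also CCAAT matches on the reverse strand), and Bub1b and Aspm have CHR and CCAAT matches.
Cdc6, chr11:98907901-98908180, plus strand: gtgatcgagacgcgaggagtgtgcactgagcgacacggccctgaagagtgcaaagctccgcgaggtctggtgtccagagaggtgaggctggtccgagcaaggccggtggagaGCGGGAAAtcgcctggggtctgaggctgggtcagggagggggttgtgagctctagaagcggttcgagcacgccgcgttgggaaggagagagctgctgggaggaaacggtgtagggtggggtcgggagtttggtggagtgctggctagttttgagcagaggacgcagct
Clspn, chr4:126556730-126557009, plus strand: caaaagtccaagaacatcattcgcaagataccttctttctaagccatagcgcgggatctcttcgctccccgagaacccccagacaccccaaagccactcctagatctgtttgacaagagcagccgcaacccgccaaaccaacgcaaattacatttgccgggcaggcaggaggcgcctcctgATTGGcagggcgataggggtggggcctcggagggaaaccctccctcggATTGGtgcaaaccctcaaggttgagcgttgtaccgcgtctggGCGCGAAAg
Bub1b, chr2:118597961-118598240, plus strand: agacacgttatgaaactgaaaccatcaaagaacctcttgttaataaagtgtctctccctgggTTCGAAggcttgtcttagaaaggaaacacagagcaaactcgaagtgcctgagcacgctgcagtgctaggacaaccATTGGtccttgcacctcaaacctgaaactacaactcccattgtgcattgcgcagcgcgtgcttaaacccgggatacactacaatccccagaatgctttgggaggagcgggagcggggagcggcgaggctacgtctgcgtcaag
Aspm, chr1:139454523-139454802, plus strand: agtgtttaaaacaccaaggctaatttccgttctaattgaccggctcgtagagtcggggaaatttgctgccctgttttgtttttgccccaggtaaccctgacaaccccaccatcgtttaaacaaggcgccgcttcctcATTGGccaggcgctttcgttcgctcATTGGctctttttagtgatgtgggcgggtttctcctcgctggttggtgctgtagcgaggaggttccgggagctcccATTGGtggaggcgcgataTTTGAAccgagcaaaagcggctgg
The E2F match in Cdc6 begins 138 bases before the start, and Cdc6 stood at 24.3 and 22.2 CPM in cycling cells against 0.528 and 1.93 CPM (log2 fold change 4.17). The E2F match in Clspn begins 21 bases after the start, and Clspn stood at 48.5 and 78.8 CPM against 2.64 and 4.67 (17.8-fold). In Aspm the CHR match lies 6 bases after the start and a CCAAT match 12 bases before it.

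Histones and other chromatin proteins also rose. Of 27 tested genes 21 were called higher and 0 lower, with a median log2 fold change of 2.22. Hmgb2, a DNA-bending protein of dividing cells, stood at 1900 and 2717 CPM in cycling cells against 159 and 267 CPM (11.2-fold, adjusted p = 0.000435). H2afz, the histone variant H2A.Z, stood at 2776 and 2918 CPM against 404 and 500 (6.40-fold), and Hmgb1 at 2877 and 3097 CPM against 909 and 1036 (3.11-fold). Cycling and remaining sums did not overlap for these genes. The linker histone gene Hist1h1b rose 42.0-fold, to 814 and 864 CPM. The replacement histone gene H3f3b, which is made throughout the cycle, was not called, with 1899 and 1725 CPM against 1305 and 1217, nor was Hist1h2bc (99.7 and 97.7 against 111 and 113). Hist1h2ae and Hist1h2ap rose 34.6-fold and 43.5-fold, and their cycling levels differed between libraries (144 against 1010 CPM and 52.6 against 955 CPM). Most replication-dependent histone transcripts lack a poly(A) tail and have near-identical copies, so the division of reads among these genes is uncertain.

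Genes that control the step from G1 to S were mixed. Of 21 genes 13 were called higher and 0 lower, with a median log2 fold change of 1.53. Ccne2 (cyclin E2) rose 14.2-fold, to 71.4 and 61.2 CPM from 4.48 and 4.83, and Ccne1 rose 5.09-fold. Cdk4, the kinase partner of D cyclins, rose 2.43-fold, to 442 and 413 CPM from 181 and 175. E2f1 rose 2.93-fold, a call lost with DESeq2 and in cells thinned to 5000 UMIs (adjusted p of up to 0.214), and the repressor E2f8 stood at 28.3 and 42.3 CPM against 1.06 and 0.322 CPM. The D cyclins themselves were not called. Ccnd2 stood at 530 and 1144 CPM in cycling cells against 444 and 773 CPM (adjusted p = 0.242). Ccnd1 stood at 195 and 409 CPM against 208 and 131 (adjusted p = 0.254), so its direction differed between the libraries. Rb1, the retinoblastoma gene that holds E2F in check, stood at 71.4 and 36.1 CPM against 78.9 and 72.1 and was not called.

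Of 14 cell cycle inhibitors 5 were called higher and 1 lower. Cdkn2c (p18) rose 4.54-fold, to 110 and 94.8 CPM from 29.8 and 17.9, and Cdkn2d (p19) rose 2.60-fold. Cdkn1a (p21), a target of p53, stood at 43.1 and 7.80 CPM against 6.33 and 2.25 (4.99-fold, adjusted p = 0.0222), and Trp53 rose 2.12-fold. Cdkn2a had 3 and 12 UMIs against 0 and 0, or 5.11-fold and 10.2-fold higher by the limit of 3 counts. That limit takes the few UMIs of the cycling cells as exact, so the true fold can be smaller. Btg1, an antiproliferative gene, fell 2.24-fold, to 209 and 129 CPM from 373 and 366. Cdkn1b (p27) stood at 162 and 140 CPM against 204 and 228 and was not called. Without the library block 2 of the list were called higher, and Cdkn1a had adjusted p = 0.166. Cdkn2c kept its call under all 18 alternatives, Cdkn2d under 17, Btg1 under 16 and Trp53 under 15. Cdkn1a was tested under 17 and called under 16, and Cdkn2a was tested under 10 and called under 8.

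**Figure D2:**
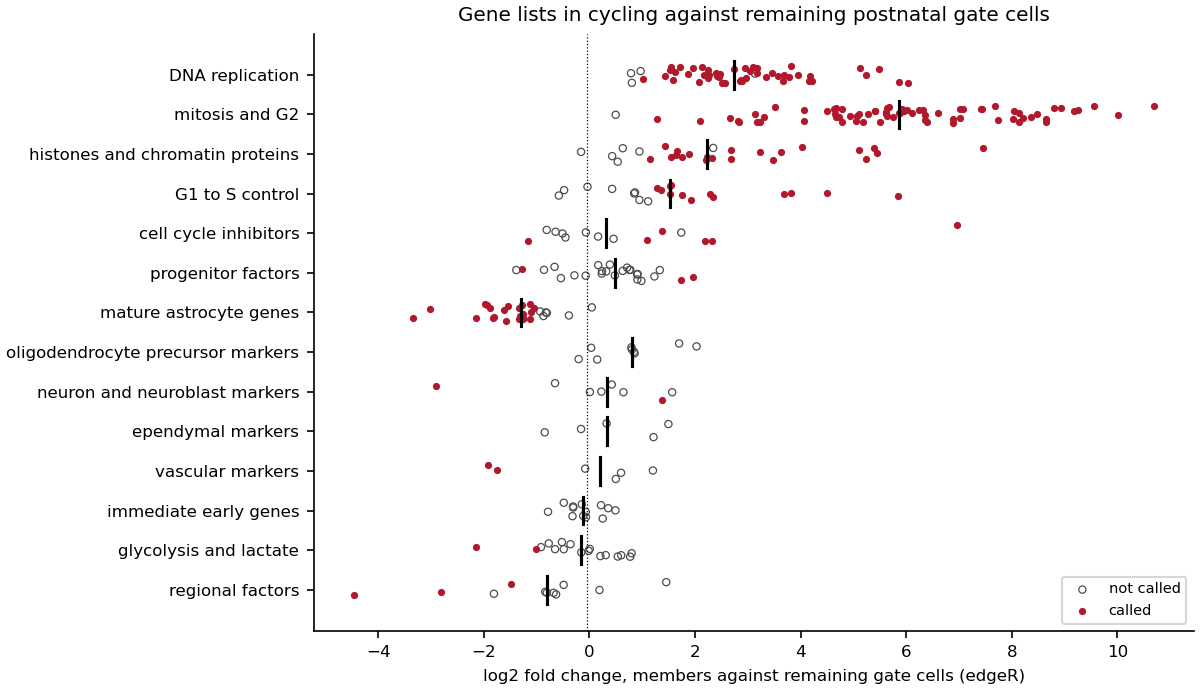
Log2 fold change of each tested gene (points, red where called) by gene list, cycling against remaining postnatal gate cells, with list medians as bars and the median of all genes dotted. Medians of 5.86 for mitosis, 2.74 for replication and -1.30 for mature astrocyte genes stood apart from the median of all genes at -0.04.

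Mature astrocyte genes fell. Of 28 tested genes outside the rule 22 were called lower and 0 higher, with a median log2 fold change of -1.30. Aldoc, the glycolytic aldolase of astrocytes, stood at 357 and 181 CPM in cycling cells against 1289 and 1001 CPM (4.43-fold lower, log2 fold change -2.15 ± 0.22 SE, adjusted p = 0.00278). Aqp4, the water channel of astrocyte endfeet, stood at 280 and 53.4 CPM against 781 and 309 (3.94-fold lower). The cycling sums were below both remaining sums for these genes, and postnatal replicate 2 was the lower in each class. Apoe, the lipid carrier, fell 3.85-fold, Slc1a2, the main glutamate transporter of astrocytes, 3.06-fold, Gja1, a gap junction channel, 2.39-fold, and Agt, angiotensinogen, 10.1-fold. Aldh1l1, an enzyme of folate metabolism, stood at 113 and 277 CPM against 308 and 355, and the factor Dbx2 at 95.7 and 39.0 against 111 and 32.3, and neither was called. Without the library block 4 of the list were called lower, among them Aldoc.

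Among genes of at least 50 CPM on average and outside the rule, the 12 with the largest fall were Hgf, Cntnap2, Hopx, Entpd2, Gfap, Gm13111, Ptx3, Gabrb1, Aldoc, Baalc, Aldh6a1 and Cldn10. Hgf, a growth factor, stood at 13.5 and 6.16 CPM in cycling cells against 89.9 and 119 CPM (12.4-fold lower, adjusted p = 0.00199). Hopx, a homeodomain protein of neural stem cells and astroglia, had 15 and 16 UMIs against 379 and 632 (9.08-fold lower). Gfap, the intermediate filament of astrocytes, stood at 128 and 9.85 CPM against 480 and 115 (5.95-fold lower), with its cycling level in postnatal replicate 1 above the remaining level of postnatal replicate 2. Entpd2, an ectonucleotidase, fell 7.57-fold and Gabrb1, a GABA receptor subunit, 4.70-fold. Without the library block 5 of these 12 calls were lost, those of Gfap, Entpd2, Gabrb1, Baalc and Cldn10, with adjusted p = 0.271, 0.0929, 0.0645, 0.176 and 0.220. The other 7 kept their call under all 18 alternatives run.

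**Figure D3:**
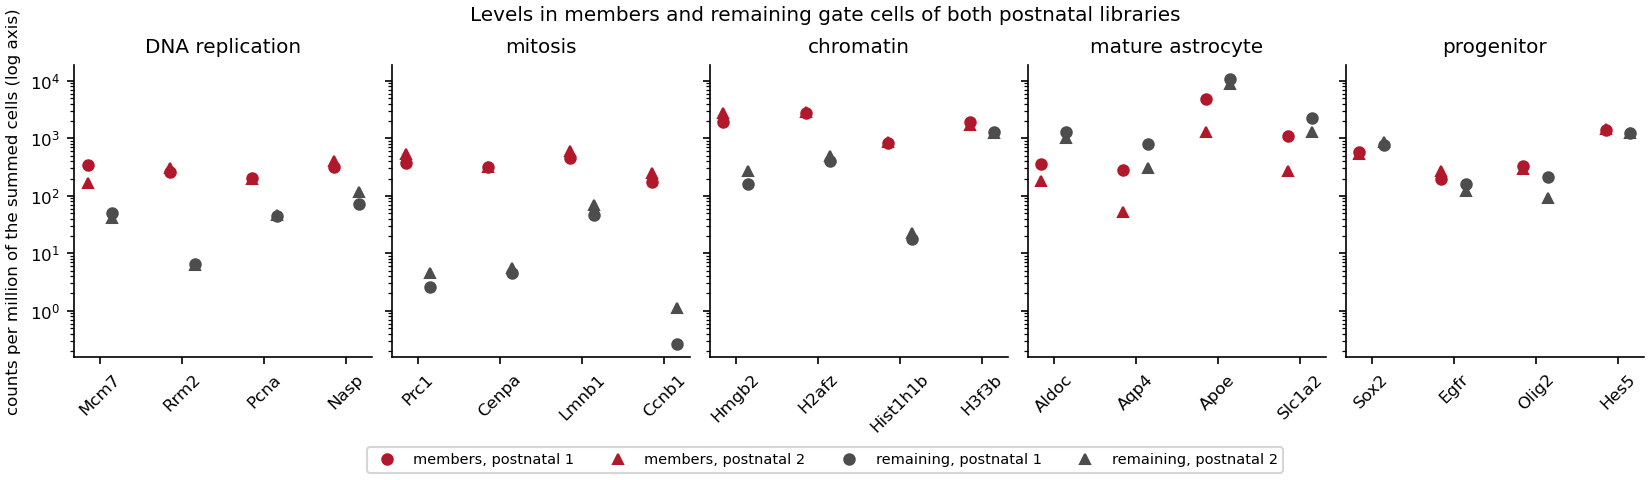
CPM (log axis) of 20 genes in the summed cycling (red) and remaining (grey) gate cells of postnatal replicate 1 (circles) and 2 (triangles). Cycling levels of Rrm2 were 264 and 302 CPM against 6.59 and 6.28, and levels of Aldoc were 357 and 181 against 1289 and 1001, while Hes5 stood between 1219 and 1451 in all 4 sums.

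Of 25 progenitor factors 2 were called higher and 1 lower, against a background of 5.75% and 4.64%. The count called higher depended on the setting. It was 0 without the library block, 7 without all cells of shared barcodes, and 8 of 24 tested without cells that had an exclusion gene or 2 precursor markers. The count called lower was 0 to 3 under the alternatives, and Tnc, not called in the main fit, was called under 11 of 18. Insm1, a factor of neurogenic progenitors, had 26 and 46 UMIs against 18 and 51 (3.87-fold in the fit, adjusted p = 0.0366), and lost its call without the block, without a scaling factor and in cells thinned to 5000 UMIs. Pax6 fell 2.42-fold, to 101 and 69.4 CPM from 171 and 235, and lost its call where cells with an exclusion gene or 2 precursor markers were left out.

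Olig2, a factor of glial progenitors, stood at 336 and 298 CPM against 209 and 90.4 CPM (2.35-fold, adjusted p = 0.0510), just outside the threshold, and 17 of 18 alternatives called it higher, all but the fit without the library block (adjusted p = 0.176). Egfr, the receptor of the mitogen EGF, stood at 195 and 268 CPM against 157 and 120 (adjusted p = 0.117), and 0 alternatives called it. The stem cell factor Sox2 stood at 582 and 529 CPM against 774 and 856 (adjusted p = 0.116). The Notch target Hes5 stood at 1393 and 1451 CPM against 1219 and 1225 and was not called (adjusted p = 0.503), although both cycling sums lay above both remaining sums. Fabp7, a fatty acid binding protein of immature glia, stood at 5677 and 10737 CPM against 11143 and 18375 (adjusted p = 0.0953).

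Shares of cells with a UMI were compared after each cell was thinned to 5000 UMIs, since the cycling cells were deeper. This kept 33 cycling and 265 remaining cells of postnatal replicate 1 and 69 and 417 of postnatal replicate 2, and left out 3, 101, 0 and 72. Cells with at least 2 of Cldn5, Flt1 and Kdr, 32 and 26 of them after thinning, served as endothelial-marked cells that should lack these genes, with medians of 40395 and 42364 UMIs before thinning. Egfr was detected in 45.5% and 68.1% of cycling cells against 38.5% and 29.3% of remaining cells, and Olig2 in 51.5% and 60.9% against 40.4% and 19.9%, so the difference was larger in postnatal replicate 2 for both genes, and neither had a UMI in the thinned endothelial-marked cells. Before thinning, Egfr was detected in 61.1% and 92.8% against 49.5% and 41.3%, and Olig2 in 61.1% and 88.4% against 44.3% and 29.9%. Aldoc went the other way, with 39.4% and 46.4% of cycling against 88.7% and 95.2% of remaining cells and 0% and 7.69% of endothelial-marked cells. Aqp4 was detected in 39.4% and 24.6% against 67.9% and 61.2%. Before thinning, the Aldoc shares were 61.1% and 81.2% against 91.5% and 95.5%, and the Aqp4 shares 52.8% and 40.6% against 76.5% and 72.6%. These shares carry no test.

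**Figure D4:**
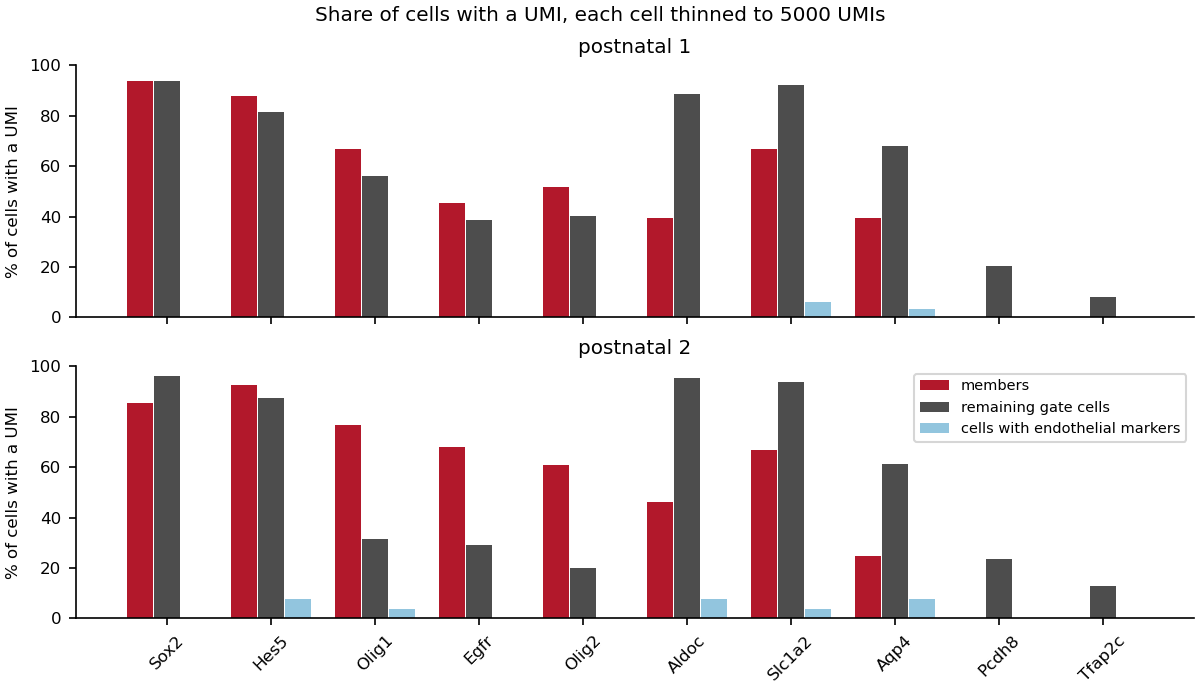
Share of cells with a UMI of each gene (y, percent) after thinning every cell to 5000 UMIs, for cycling cells (red), remaining gate cells (grey) and endothelial-marked cells (blue) of both postnatal libraries. Egfr was detected in 45.5% and 68.1% of cycling against 38.5% and 29.3% of remaining cells, and Aldoc in 39.4% and 46.4% against 88.7% and 95.2%.

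Pcdh8, a protocadherin, and Tfap2c, a transcription factor, mark a part of the postnatal astroglia and were low in cycling cells. Pcdh8 stood at 5.39 and 1.64 CPM in cycling cells against 46.9 and 69.8 CPM (log2 fold change -4.46 ± 0.47 SE, adjusted p = 0.00337), and Tfap2c at 1.35 and 3.28 against 15.8 and 21.4 (6.96-fold lower, adjusted p = 0.0149). The Tfap2c call was lost where cells with an exclusion gene or 2 precursor markers were left out (adjusted p = 0.233). After thinning, neither gene had a UMI in a cycling cell, where 3 cells would be 9.09% of 33 and 4.35% of 69. This bears on cells with a UMI at this depth, not on cells that express the gene. For Tfap2c it says little, since at 15.8 and 21.4 CPM few remaining cells would hold a UMI at this depth either. After the same thinning, Pcdh8 was detected in 20.4% and 23.5% of remaining cells. Before thinning, Pcdh8 was detected in 5.56% and 5.80% of cycling against 24.6% and 36.6% of remaining cells. Of 11 tested regional factors 3 were called lower and 0 higher, the other being Dmrta2, which fell 2.80-fold. Dmrta2 kept its call under 13 of 18 alternatives, with adjusted p of up to 0.384.

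Markers of other cell types were examined in the same sums, and summed levels are over the tested markers outside the rule. Of 9 tested oligodendrocyte precursor markers 0 were called in edgeR (8 lay above 0). The count called higher was 6 of 9 without cells of at least 40000 UMIs (Bcas1, Cacng4, Cspg4, Gpr17, Lhfpl3 and Sox10), 3 without all cells of shared barcodes, and 0 to 3 under the other alternatives. Their summed level was 694 and 181 CPM in cycling cells against 442 and 110 CPM in remaining cells. Gpr17, a receptor of committed precursors, stood at 70.1 and 7.80 CPM against 29.0 and 1.13 CPM (adjusted p = 0.0501), and 12 of 17 alternatives called it higher, DESeq2 among them. Bcas1, a gene of early oligodendrocytes, stood at 32.3 and 18.9 CPM against 18.5 and 1.45 (adjusted p = 0.103), and 8 of 17 called it higher. At least 2 of the 10 precursor markers were detected in 12 of 36 and 29 of 69 cycling cells, and after thinning in 24.2% and 11.6% of cycling against 13.6% and 3.84% of remaining cells. Pdgfra, an exclusion gene that the gate allowed alone, was detected in 7 cycling cells of each library. Without cells that had an exclusion gene or 2 precursor markers, 623 genes were called higher and 498 lower. Of 8 tested neuron and neuroblast markers 1 was called higher (Elavl4, 2.59-fold) and 1 lower (Stmn2), their summed level was 601 and 513 CPM against 624 and 859, and Dlx5 had 0 UMIs in all 4 sums. Elavl4 kept its call under 14 of 18 alternatives and Stmn2 under 11 of 17, with adjusted p of up to 0.202 and 0.653. Dlx1, a factor of GABAergic neuroblasts, stood at 62.0 and 12.3 CPM against 9.23 and 9.50 CPM (adjusted p = 0.101), and 9 of 18 alternatives called it higher. At least 2 of the 14 neuron markers were detected after thinning in 45.5% and 47.8% of cycling against 34.3% and 38.8% of remaining cells.

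Of 7 ependymal markers 5 were tested and 0 called, with 511 and 36.1 CPM in cycling against 110 and 120 CPM in remaining cells. Called higher were 4 of 7 with no filter on low counts, Dynlrb2 and Foxj1 in cells thinned to 5000 UMIs, and Foxj1 without cells of at least 40000 UMIs. Mia was called lower without cells of at least 40000 UMIs and without cells that had an exclusion gene or 2 precursor markers. Without gate cells of 3 or more ependymal markers 2 of 3 were called lower. In postnatal replicate 1, 6 of the 36 cycling cells held at least 3 ependymal markers and 97.4% of the Foxj1 UMIs of the cycling cells, Foxj1 being the master factor of motile cilia. In postnatal replicate 2, 2 of 69 held as many. Among remaining cells 16 of 366 in postnatal replicate 1 and 39 of 489 in postnatal replicate 2 did, so the libraries went opposite ways. Without gate cells of 3 or more ependymal markers, chosen after the data were seen, 934 genes were called higher and 939 lower. Vascular markers summed to 57.9 and 77.6 CPM against 92.8 and 143 CPM, with 2 of 6 tested genes called lower (Pdgfrb and Col1a2) and with Cdh5 at 0 in all 4 sums. Pdgfrb kept its call under 16 of 18 alternatives and Col1a2 under 13 of 18, with adjusted p of up to 0.0604 and 0.184. Microglia markers were too rare to test, with Tmem119 at 0 in all 4 sums, and 0 cycling cells had 2 of them. Of 5 red blood cell genes 2 were tested and 0 called, with 17.5 and 6.98 CPM against 17.1 and 6.92. Of 13 immediate early genes, which respond to dissociation, 0 were called in edgeR, though 3 of 18 alternatives called Dusp1 lower, and the median log2 CPM ratio was -0.79 in postnatal replicate 1 and 0.52 in postnatal replicate 2. The part of these markers in the differences above was not tested.

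Of 17 tested genes of glycolysis and lactate 0 were called higher and 2 lower, Aldoc and Pfkm. The log2 fold change of Pfkm, -1.01, lay at the limit of the call, which it kept under 10 of 18 alternatives, against 18 of 18 for Aldoc. Gapdh stood at 1563 and 1646 CPM in cycling cells against 1798 and 1449 CPM.

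The cycling cells differed among themselves. Over the 36 cells of postnatal replicate 1 the replication list took a median of 3501 CPM per cell (range 661 to 15596) and the mitosis list 6274 (458 to 26441). Over the 69 cells of postnatal replicate 2 these were 3158 (255 to 15520) and 6180 (708 to 26962). In remaining cells the medians were 611 and 847 CPM for replication and 486 and 649 CPM for mitosis. The replication list exceeded the mitosis list in 15 of 36 and 20 of 69 cycling cells. Across cells, replication and mitosis levels had a Spearman rho of 0.14 (36 cells) and 0.23 (69 cells), which describes cells that share a library and is not a test. The mature astrocyte list ranged from 1689 to 94665 CPM in postnatal replicate 1 (median 9114) and from 1334 to 44684 in postnatal replicate 2 (median 5467), against medians of 57057 and 30001 in remaining cells. Some cycling cells reached the mature astrocyte levels of the remaining cells, above all in postnatal replicate 1, where the upper quartile was 49755. The progenitor list had medians of 12210 and 16711 CPM in cycling against 15818 and 22502 CPM in remaining cells. In the sums of cells Fabp7, 1 gene, made up a large part of the total of this list. By gene the list went the other way, with 18 of 25 log2 fold changes above 0, 7 below and a median of 0.48. Across the cycling cells the progenitor total had a Spearman rho of 0.41 and 0.66 with the mature astrocyte list, again a description.

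**Figure D5:**
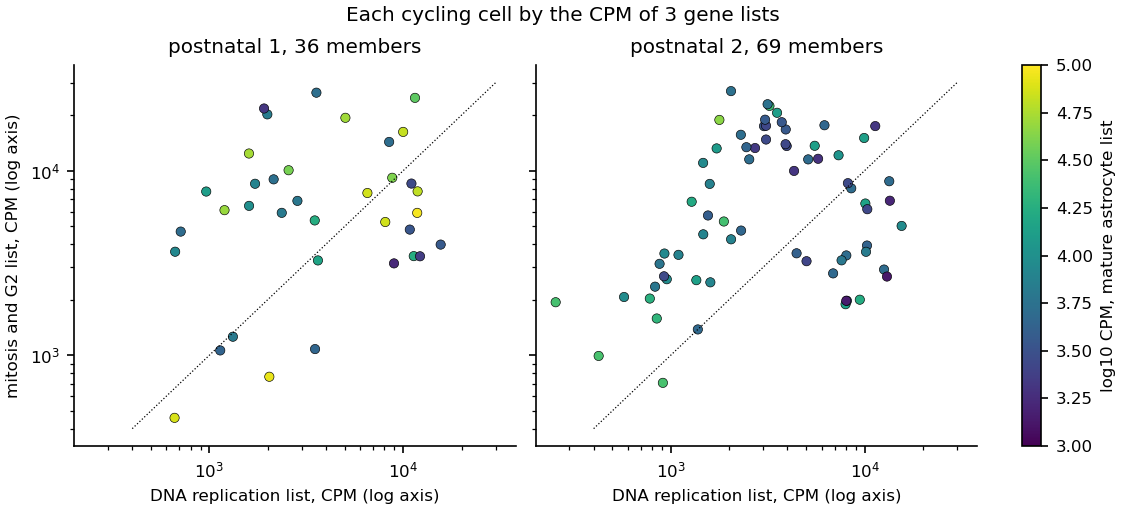
Mitosis and G2 list (y) against DNA replication list (x), in CPM per cell on log axes, for the 36 and 69 cycling cells of the postnatal libraries, coloured by log10 CPM of the mature astrocyte list. Above the dotted line of equality lie cells with more mitosis than replication counts, and 15 and 20 cells lay below it.

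The replication levels of remaining cells overlapped those of cycling cells. After thinning, cycling cells held a median of 13 and 16 UMIs of the replication list and remaining cells 3 and 4. Of the remaining cells, 8 of 265 (3.02%, 95% Clopper-Pearson interval 1.31 to 5.86) and 13 of 417 (3.12%, 1.67 to 5.27) reached the median of the cycling cells. The lower quartile of the cycling cells, at 9 and 7 UMIs, was reached by 19 of 265 and 78 of 417. For the cells at or above the median of the cycling cells, the mitosis list had a median of 6.5 and 7 thinned UMIs, against 34 and 28 in cycling cells. With the remaining cells restricted to those without a UMI of the cycle genes, an alternative chosen after the data were seen, 846 genes were called higher, 662 of them among the 668.

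The same rule was applied to the 3m libraries to compare the ages. It found 5 of 425 gate cells in 3m replicate 1 (1.18%, 0.383 to 2.72) and 8 of 359 in 3m replicate 2 (2.23%, 0.967 to 4.34). The share was 10.7% ± 2.41 (SD, n = 2) in postnatal and 1.70% ± 0.744 (SD, n = 2) in 3m libraries, a difference of 8.96 percentage points, with both postnatal libraries above both 3m libraries. An exact two-sided permutation test gave p = 0.333, the smallest value that 2 against 2 libraries allow. All 8 cells of 3m replicate 2 shared a barcode with postnatal replicate 2. In 5 of them the 3m cell was the smaller, with a median of 1.82% of the UMIs of its partner, and each partner was a postnatal cycling cell. Without the smaller cells of shared barcodes 3 of 348 remained (0.862%), and without all cells of shared barcodes 0 of 340, which by the limit of 3 counts allows a share of up to 0.882% (upper Clopper-Pearson bound 1.08%). In postnatal replicate 2 the share without shared barcodes was 6.45% (32 of 496). At a common depth of 5000 UMIs and a limit of 3 UMIs the shares were 9.06% and 11.3% in postnatal and 1.61% and 1.09% in 3m libraries.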

How the data were processed

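The table the authors deposited holds whole UMI counts, not normalised, with genes in rows and cells in columns. The submitters' processing notes name Cell Ranger, the build mm10 and Seurat 3.1.1, and the single-cell methods of the study name cellranger count and mm10 for its striatal samples. The table held 31053 gene symbols, runs were already merged, and 0 columns were left unused. Library totals were 7185335 and 11501049 UMIs (postnatal) and 10581546 and 9369134 UMIs (3m). The 105 cells and the gene lists were chosen with earlier results of these data known.

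Counts were summed per library over cycling and over remaining gate cells. The 4 sums were tested with edgeR 4.0.16 (quasi-likelihood F test, TMM, filterByExpr by class), with the 22 rule genes kept in the fit (18 passed the filter) but left out of all calls. The replicate number marks the same library in both classes, and deviations of the same library from the class means correlated at 0.52 over 3549 genes, so the library was a block. P-values measure only the spread between 2 libraries, whose animals the labels do not give. Tested on simulated data of 11308 genes, the fit called 99 of 100 genes changed 4-fold, 40 of 100 changed 2-fold and 5 unchanged genes. The simulated spread was smaller than the common dispersion of the data (0.0338), and no changed gene was drawn from genes of low level. The share found among the real genes may therefore be lower. Named genes were the rule genes, the 12 called higher and 12 called lower with the largest fold change among genes of at least 50 CPM that moved alike in both libraries, up to 8 genes of highest level per list, and any gene of 4 lists (mature astrocyte, progenitor, G1 to S, inhibitors). Genes with promoters shown followed the motif and fold change. Rpa3, Pfkm, Hist1h2ae, Hist1h2ap, Hist1h2bc, Bub1b, Cdh5 and Dlx5 were singled out with their values known. Doublets were marked with Scrublet in Scanpy 1.11.5. Alternatives covered scaling, filter, tool (DESeq2 1.42.0), block, UMI limits, depth, doublets and shared barcodes. A gene of the progenitor list that is counted in its totals is not reported here by name.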

Additional observations from a re-analysis of the deposited data

Results flagged for a closer look

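Cells outside the astroglia gate took no part in the tests above, where the endothelial-marked cells among them served only as background for shares of cells with a UMI. At least 5 UMIs of the cycle genes were found in 28 of 153 such cells of postnatal replicate 1 (18.3%, 95% Clopper-Pearson interval 12.5 to 25.4) and in 24 of 166 of postnatal replicate 2 (14.5%, 9.49 to 20.7). The 3m libraries held 2 of 695 (0.288%) and 10 of 405 (2.47%), which flagged both postnatal values. Of the postnatal cells, 14 and 18 had more than 1 exclusion gene, and 23 and 18 had fewer than 3 gate genes. The source of these cells was not tested.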

How the results depend on the processing

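The count of genes called higher stayed within 1.5 times of 668 under every alternative run, from 446 without the library block to 934 without gate cells of 3 or more ependymal markers. The count called lower (539) was 151 with no replicate block, 295 with DESeq2 and the library block, 941 with no filter on low counts, 878 with at least 10 UMIs of the cycle genes, and 939 without gate cells of 3 or more ependymal markers, and 150 of the 151 were among the 539. The mature astrocyte genes called lower went from 22 to 4 with no replicate block. The inhibitors called higher went from 5 to 2 with no replicate block, 3 in cells thinned to 5000 UMIs and 2 without exclusion genes and precursor markers. The progenitor factors called higher went from 2 to between 0 and 8, and those called lower from 1 to between 0 and 3. The oligodendrocyte precursor markers called higher went from 0 to between 0 and 6. The share of cycling cells in postnatal replicate 2 was 6.45% without shared barcodes. With 1 library left out there was no test, and 594 to 643 of the genes called higher and 399 to 507 of those called lower stayed past a 2-fold change. The age difference in shares was 7.25 to 10.7 points with 1 library left out and 7.01 to 9.77 otherwise. No called result changed sign under any alternative run. The causes were not tested. Of 100 simulated 2-fold changes 66 passed the adjusted p and 40 were called, since a called gene also had to reach 2-fold, against 99 of 100 simulated 4-fold changes.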
